A study of Mus musculus with 6 samples.

Results

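The lipid-sensing nuclear receptors examined here were the peroxisome proliferator-activated receptors (PPARs; Ppara, Ppard and Pparg), the liver X receptors (LXRs; Nr1h3 for LXR-alpha and Nr1h2 for LXR-beta) and the retinoid X receptors (RXRs; Rxra, Rxrb and Rxrg). The members were all probe sets of the array whose only gene symbol is one of these 8 genes. There were 8 such probe sets, of 12488 in all, and they covered 7 of the 8252 genes with a probe set of their own. Rxra had 2 probe sets, and Nr1h2 had none in the gene table used and is not analysed here. RNA came from livers of C57BL/6 mice, an inbred laboratory strain. The mice were fed either a high-fat diet of Western style (3 arrays, HF1 to HF3) or a low-fat diet (3 arrays, LF1 to LF3), in both cases for 12 weeks. The 3 arrays of each diet are named as replicates. It is not stated whether an array holds 1 mouse or a pool, so p-values measure only the spread between these arrays, which may be technical. The strain and the time on the diet are the same in both groups, and the labels give no composition of the diets and no time of day for collection.

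PPARs and LXRs are transcription factors that bind lipids and act on DNA as pairs with an RXR. PPAR-alpha is the main PPAR of hepatocytes, binds fatty acids and switches on fatty acid oxidation. PPAR-gamma is the master regulator of fat cells and is present in liver at a low level that is known to increase in fatty liver, while LXRs bind oxidised cholesterol and switch on cholesterol efflux and fatty acid synthesis. Ligands change the activity of these receptors without any change in their amount, so the comparison asks whether the receptor transcripts differ between the diets, and how the transcripts of their known targets stand beside them.

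The receptor probe sets gave no call, at a number too small for this to set them apart from other probe sets. Testing required an intensity above a floor of 68.9, the 30th percentile of all intensities, on 3 or more arrays, which 6 of the 8 receptor probe sets met. Of these 6, 0 had an adjusted p under 0.05 in limma's fit, against 0.827% of all 8950 tested probe sets in either direction and 0.425% lower on the high-fat diet. A count of 0 of 6 is near that background and is no result about the receptors. The probe set of Pparg was the only 1 of the 6 with an unadjusted p under 0.05, which 9.07% of all tested probe sets had. The median size of the log2 fold change was 0.27 for the 6 receptor probe sets, against 0.18 for all tested probe sets. Of the 73 tested genes on lists of PPAR-alpha, PPAR-gamma and LXR targets, 7 rose on the high-fat diet and 0 fell. The receptor genes Nr1h3 and Rxra are on the LXR list and so among the 73. Over all 6557 tested genes 0.976% were called, 0.503% higher and 0.473% lower. Receptors and targets were not tested against each other.

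Between any pair of arrays the log2 values had a correlation of 0.937 to 0.962, taken over probe sets, which are not independent replicates. The hepatocyte markers Alb (albumin) and Apoa1 (the main protein of high-density lipoprotein) had lowest readings of 34920 and 30092. All 11 measured hepatocyte markers lay above the floor on all 6 arrays. HF2 stood apart in markers of other tissues. Its summed intensity of 8 pancreatic acinar markers was 13108, against 4623 on HF1, 2399 on HF3 and 2350 to 7496 on the low-fat arrays. Its sum of 9 skeletal muscle markers was 4413, against 1941 on HF1, 1978 on HF3 and 2008 to 2426 on the low-fat arrays, and the muscle actin Acta1 read 1771 on HF2 and at most 60.0 on the other arrays, below the floor. In whole liver RNA, fewer cells of a type and less RNA per cell cannot be told apart.

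**Figure D1:**
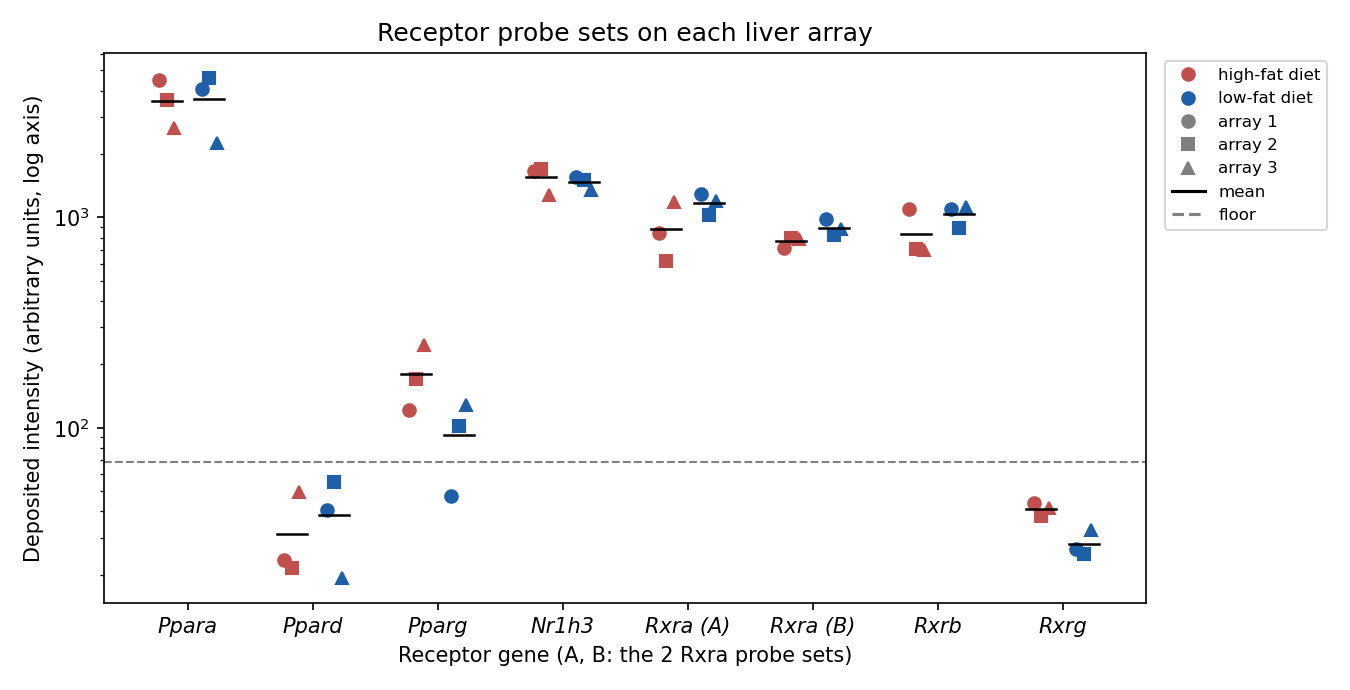
Deposited intensity (log axis) of each receptor probe set on the 3 high-fat arrays (red) and the 3 low-fat arrays (blue), with the mean of each diet as a bar and the floor of 68.9 as a dashed line. Intensities of different probe sets cannot be set against each other. Ppard and Rxrg lie below the floor on all 6 arrays, and the diets overlap for Ppara, Pparg, Nr1h3, Rxrb and the first Rxra probe set.

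Ppara, the fatty acid sensor of hepatocytes, had intensities of 4487, 3610 and 2652 on high-fat arrays 1, 2 and 3, against 4064, 4600 and 2248 on low-fat arrays 1, 2 and 3. The diets overlapped, and in both the array numbered 3 was the lowest. The means were 3583 ± 918 for high-fat and 3637 ± 1232 for low-fat arrays (SD, n = 3 each). The log2 fold change, high-fat minus low-fat, was 0.01 with a 95% interval from -0.61 to 0.63 (adjusted p = 0.997), so a rise of up to 1.55-fold or a fall of up to 1.53-fold lay within the interval. The sign of this difference followed single arrays: it was -0.17 without HF1, -0.011 without HF2 and -0.30 without LF3, and 0.21 was the highest value with an array left out. The arrays numbered 3 also had the lowest 3' to 5' ratios of the Gapdh control probe sets, a sign of RNA quality and labelling, at 0.889 for HF3 and 0.824 for LF3, against 1.04 to 1.23 on the other 4 arrays. The ratios of pyruvate carboxylase were lowest there too, at 2.62 for HF3 and 2.65 for LF3, against 3.78 to 7.96 on the others. Those of beta-actin were not, at 1.79 for HF3 and 1.75 for LF3, against 1.56 to 1.96 on the others. The part of RNA quality in the Ppara values was not tested.

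Pparg, the fat cell regulator, was the receptor with the largest difference. Its probe set read 122, 170 and 247 on the high-fat arrays, against 47.6, 103 and 128 on the low-fat arrays. The diets overlapped at 1 point only, since high-fat array 1 lay below low-fat array 3, and low-fat array 1 was under the floor. The log2 fold change was 0.83 ± 0.35 (SE), a 1.78-fold higher level on the high-fat diet with a 95% interval from 1.04-fold to 3.07-fold. It did not pass the test (adjusted p = 0.512). With each array left out the log2 value stayed above 0, from 0.57 to 1.08. The probe set carries a suffix of the array maker for probes that can match more than 1 transcript, and its signal was low.

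PPAR-gamma is also made by macrophages and fat cells. Markers of both, taken by the brightest probe set of each gene, had higher means on the high-fat diet. All 15 measured macrophage markers had a higher mean there by that probe set. A second C1qb probe set, above the floor on all 6 arrays, went the other way, at -0.091 on the log2 scale. The summed intensity of the 15 ran from 12748 to 15439 on the high-fat arrays against 9442 to 12364 on the low-fat arrays. Itgam was below the floor on every array, and Marco and Fcer1g were above it on 2 arrays each. All 12 macrophage markers tested had a fold change above 0, where 51.3% of all tested genes did. Of the 12, 0 passed, where 0.976% of all tested genes were called, so this count is near that background. Mpeg1 had the smallest p (log2 fold change 0.89, adjusted p = 0.0662). All 5 measured fat cell markers had a higher mean on the high-fat diet by their brightest probe sets. Second probe sets of Lep and Ucp1 went the other way, at -0.093 and -0.081 on the log2 scale. The fat cell sums ran from 1273 to 1574 on the high-fat diet against 874 to 1474 on the low-fat diet. Of the 4 fat cell markers tested 0 passed, which is also near the background. Retn was below the floor on all arrays, and Adipoq, a defining fat cell gene, read 92.5, 200 and 48.3 on the high-fat arrays against 59.4, 110 and 85.9 on the low-fat arrays. The log2 value of Pparg was 0.84 without HF2, the array with the highest acinar and muscle sums. HF2 had the lowest macrophage sum of the high-fat arrays, at 12748. HF3 had the highest macrophage sum, at 15439, and the highest Pparg reading, at 247. HF1 had a higher macrophage sum than HF2, at 13992, and a lower Pparg reading, at 122 against 170. On LF1, LF2 and LF3 the macrophage sums were 12364, 9614 and 9442, in the reverse order of Pparg, which read 47.6, 103 and 128. The fat cell sum was the lowest of its diet on HF3 and LF3, where Pparg was highest. Without HF3 the log2 value of Pparg was 0.57, the lowest with an array left out. The part of these cell types in the Pparg values was not tested.

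Ppard, the PPAR found in most tissues, lay below the floor on every array, at 23.4, 21.5 and 49.3 on the high-fat diet against 40.5, 55.3 and 19.4 on the low-fat diet, and was not tested. With the floor lowered to the 10th percentile of intensities (17.9) its log2 fold change was -0.27, with a 95% interval from -1.46 to 0.92 that leaves its direction unknown.

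Nr1h3, which encodes the LXR of liver and macrophages, had the narrowest range of the tested receptors. It read 1670, 1702 and 1278 on the high-fat arrays, against 1549, 1500 and 1353 on the low-fat arrays, and its highest array was 1.33 times its lowest. The values of the diets overlapped. The log2 fold change was 0.07 ± 0.14 (SE), with a 95% interval from 0.837-fold to 1.32-fold (adjusted p = 0.952), and without HF2 it was -0.0041. A difference of 2-fold in either direction lay outside this interval, as it did for Ppara.

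The RXRs, the shared partners, had lower means on the high-fat diet wherever they were measured above the floor. The first Rxra probe set read 843, 623 and 1190 on the high-fat arrays, against 1285, 1022 and 1200 on the low-fat arrays. High-fat array 3 lay within the low-fat range and the other two below it. Its log2 fold change was -0.44 ± 0.22 (SE), with a 95% interval from -0.95 to 0.06 (adjusted p = 0.618). The second Rxra probe set, which the gene table assigns to the same sequence entry, read 719, 800 and 793 on the high-fat arrays, against 979, 826 and 877 on the low-fat arrays. It was the only tested receptor probe set whose diets did not overlap, 1 of 6, where 14.1% of all tested probe sets had no overlap. Its log2 fold change was -0.21 ± 0.14 (SE), from -0.52 to 0.10 (adjusted p = 0.741). With each array left out the first probe set gave -0.68 to -0.22 and the second -0.27 to -0.14.

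Rxrb, the RXR found in nearly all tissues, read 1099, 711 and 700 on the high-fat arrays, against 1101, 894 and 1117 on the low-fat arrays. High-fat array 1 stood level with the low-fat arrays and the other two were below all of them. The log2 fold change was -0.34 ± 0.20 (SE), with a 95% interval from -0.78 to 0.11 (adjusted p = 0.713), and it stayed below 0 with each array left out, from -0.55 to -0.22. Rxrg, the RXR known mainly from muscle and brain, was below the floor on every array, at 43.8, 37.9 and 41.5 on the high-fat diet and 26.5, 25.0 and 32.6 on the low-fat diet. These values have no order under the floor. With the floor at 17.9 its log2 fold change was 0.56, with a 95% interval from -0.26 to 1.37 (adjusted p = 0.785).

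**Figure D2:**
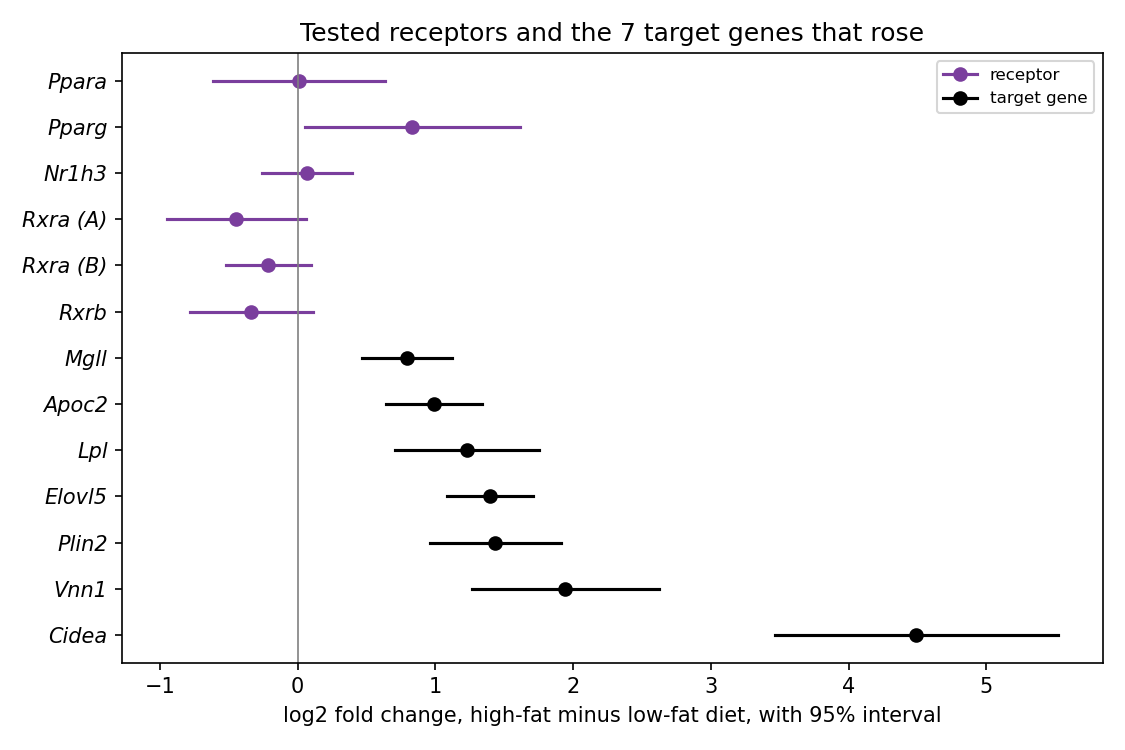
Log2 fold change, high-fat minus low-fat diet, with limma's 95% interval for the 6 tested receptor probe sets (purple; A and B are the first and second Rxra probe sets) and for the 7 target genes that passed the test (black). The intervals of Ppara, Nr1h3, Rxrb and both Rxra probe sets span 0, that of Pparg runs from 0.05 to 1.62, and Cidea stands highest at 4.49.

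Among the targets of PPAR-alpha a few rose and most did not pass. Of 46 listed genes, 33 had a probe set and 32 were tested. Of these, 3 rose, 0 fell and 29 did not pass, where 0.503% of all tested genes rose and 0.473% fell. A fold change above 0 was found for 30 of the 32, where 51.3% of all tested genes were above 0. Their median log2 fold change was 0.31, against 0.0077 over all genes. An unadjusted p under 0.05 was found for 14 of the 32, where 9.5% of all genes had one, and the diets did not overlap for 18 of the 32, where 14.5% of all genes had no overlap. This list and the other lists used here were drawn up with earlier results of these data known. Their counts describe these arrays and are not independent evidence.

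The 3 PPAR-alpha targets that rose were Vnn1, Plin2 and Mgll. Vnn1, a pantetheinase, read 1426, 3230 and 3509 on the high-fat arrays, against 591, 702 and 682 on the low-fat arrays. Plin2, a coat protein of lipid droplets, read 10132, 16517 and 18559 on the high-fat arrays, against 5138, 5592 and 5459 on the low-fat arrays. In both genes high-fat array 1 was the lowest of its diet and still above all low-fat arrays. Mgll, the lipase that releases the last fatty acid from a glyceride, read 1491, 1930 and 1752 on the high-fat diet against 972, 1105 and 898 on the low-fat diet, a 1.73-fold rise (adjusted p = 0.0402). A second Mgll probe set stood at 0.41 on the log2 scale and was not called (adjusted p = 0.829). The count of 3 was 0 without LF1, LF2 or HF2 (the array with the highest acinar and muscle sums), 1 without LF3 and 2 without HF3. Acaa1b, a peroxisomal thiolase with a near-identical copy in the genome and picked after its values were seen, was not among them: its brighter probe set stood at 0.54 on the log2 scale (adjusted p = 0.368), while a second one stood at 0.94 (adjusted p = 0.0203 over probe sets). Genes picked after their values were seen include Cpt1a, the entry enzyme of mitochondrial oxidation, at a log2 value of 0.22, and Angptl4, a secreted lipase inhibitor, at -0.29, with other probe sets at -0.18 and -1.25. None of these probe sets passed.

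Targets of PPAR-gamma in fat cells and fatty liver included the steepest rise. Of 31 listed genes 20 had a probe set and all 20 were tested. Of these 3 rose, 0 fell and 17 did not pass, where 0.503% of all tested genes rose and 0.473% fell. The median was 0.33 on the log2 scale, and 17 of the 20 stood above 0. For all genes the median was 0.0077, and 51.3% stood above 0. Cidea, a protein that enlarges lipid droplets, read 1056, 2557 and 3688 on the high-fat arrays, against 40.2, 81.8 and 155 on the low-fat arrays, and rose 22.5-fold (adjusted p = 0.0022). LF1 lay below the floor, so the size depends on it: the log2 value of 4.49 was 3.57 with the floor at the 50th percentile and 4.75 with it at the 10th. The order of its arrays within each diet was that of Pparg, with array 1 lowest and array 3 highest in both. This was noticed after the values were seen. The order of the high-fat arrays was also that of Vnn1, Plin2 and the LXR target Elovl5, whose low-fat orders differed. Lpl, described below, ran the other way on the high-fat arrays, from 840 on HF1 to 514 on HF3. Plin2, described above, is on this list too.

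The third PPAR-gamma target that rose was Lpl, the lipase that frees fatty acids from plasma lipoproteins. It read 840, 530 and 514 on the high-fat diet against 274, 276 and 235 on the low-fat diet, 2.34-fold higher (adjusted p = 0.0487 over genes). Its call was lost with any of the 6 arrays left out, and adjusted over all probe sets its p was 0.0539, against 0.0499 for a second Lpl probe set. Macrophages also make Lpl, and the sums of macrophage markers given above did not overlap between the diets. Within the high-fat diet the orders differed. HF3 had the highest macrophage sum, at 15439, and the lowest Lpl reading, at 514, while HF1 had a sum of 13992 and an Lpl reading of 840. The part of macrophages in the Lpl values was not tested. The count of 3 was 1 without HF2, LF1 or LF2, and 2 without any one of HF1, HF3 and LF3. The relatives of these droplet genes, chosen after their values were seen, included Cidec, with high-fat readings of 139, 351 and 320 and low-fat readings of 12.8, 8.3 and 6.7, the low-fat ones all below the floor (adjusted p = 0.0548), and Plin4, with a log2 fold change of 1.38 (adjusted p = 0.0705). Pck1, an enzyme of gluconeogenesis and of glycerol synthesis in fat cells, had the lowest value of the list and a smaller p than either. It read 3625, 2939 and 3525 on the high-fat arrays, against 4802, 6069 and 6487 on the low-fat arrays, at a log2 value of -0.78 that did not pass (adjusted p = 0.0518).

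LXR targets had fold changes on both sides of 0. Of 39 listed genes 28 had a probe set and 26 were tested, Nr1h3 and Rxra among them. Of these 3 rose, 0 fell and 23 did not pass. There were 16 above 0 and 10 below, and the median log2 fold change was 0.08. Of all tested genes 0.503% rose, 0.473% fell and 51.3% were above 0, with a median of 0.0077. Elovl5, a fatty acid elongase, read 13886, 16041 and 17142 on the high-fat arrays, against 5978, 5307 and 6554 on the low-fat arrays. Apoc2, the cofactor of lipoprotein lipase, read 12458, 12794 and 11012 on the high-fat arrays, against 6834, 6635 and 4928 on the low-fat arrays, and the third was Lpl. Only the call of Elovl5 held with each array left out, and the count was 1 without HF1, HF2, LF1 or LF2, and 2 without HF3 or LF3.

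Classic LXR targets, chosen after their values were seen, did not pass. Abca1, the cholesterol efflux pump, differed by 0.37 on the log2 scale (adjusted p = 0.433), with a second probe set at -0.03. Srebf1, the regulator of fatty acid synthesis, had 0.48 (adjusted p = 0.321). Cyp7a1, the rate-limiting enzyme of bile acid synthesis and an LXR target in mice, gave high-fat readings of 148, 265 and 360, against low-fat readings of 836, 315 and 1563, a log2 value of -1.62 (adjusted p = 0.341) with overlap between the diets. The sterol synthesis genes, which fall when cells hold much sterol, were set beside them. Of 17 tested, 9 fell, 0 rose and 8 did not pass, where 0.473% of all tested genes fell. All 17 had a fold change below 0, where 48.7% of all genes did, and their median was -1.21. Fdft1, squalene synthase, read 820, 938 and 1125 on the high-fat diet against 3084, 2243 and 2586 on the low-fat diet. The log2 fold changes of the 6 with the smallest p were -3.02 for Idi1, -1.75 for Fdps, -2.53 for Msmo1, -3.80 for Sqle, -1.46 for Fdft1 and -1.94 for Cyp51.

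**Figure D3:**
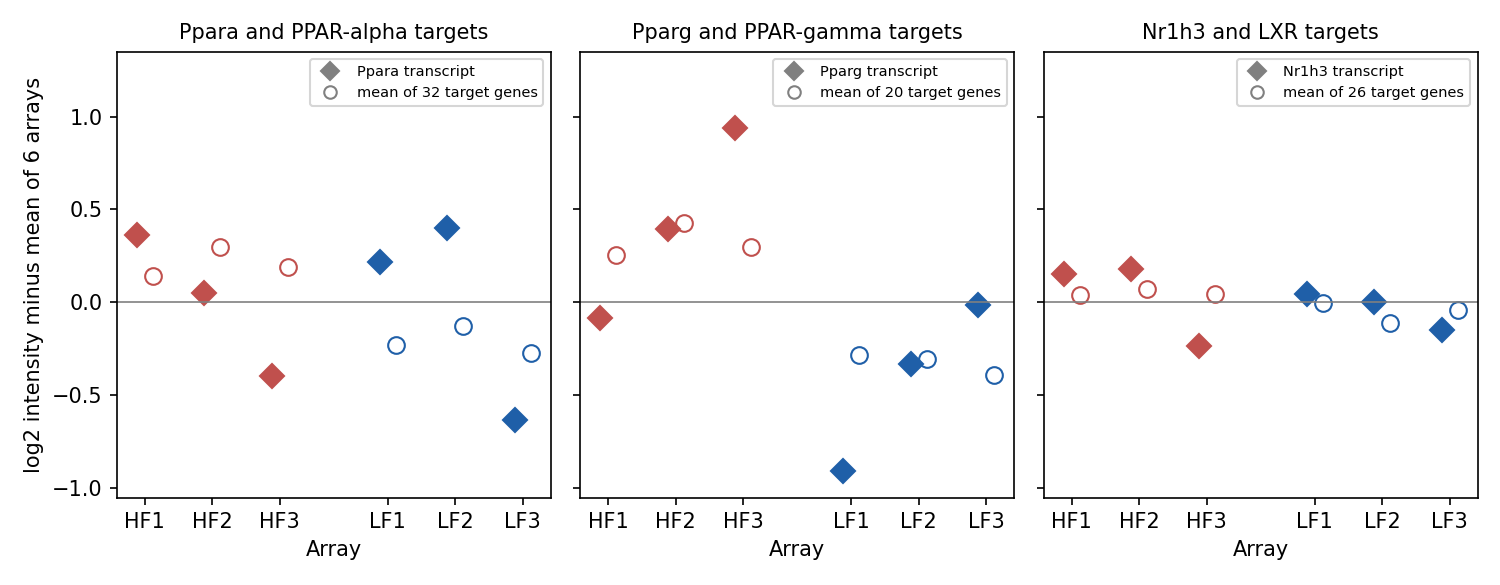
Log2 intensity of each array minus the mean of the 6 arrays, for a receptor transcript (diamonds) and for the mean of its tested target genes (open circles), on high-fat arrays 1 to 3 (HF, red) and low-fat arrays 1 to 3 (LF, blue). The LXR target mean includes Nr1h3 and Rxra themselves. The PPAR-alpha target mean lies from 0.14 to 0.30 on the high-fat arrays and from -0.27 to -0.13 on the low-fat arrays, while Ppara itself spans -0.40 to 0.36 on the high-fat arrays and -0.63 to 0.40 on the low-fat arrays.

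The plot by array sets each receptor beside the mean of its targets. The mean of the 32 PPAR-alpha targets, centred on all 6 arrays, was 0.21 ± 0.08 for high-fat and -0.21 ± 0.07 for low-fat arrays on the log2 scale (SD, n = 3 each). That of the 20 PPAR-gamma targets was 0.33 ± 0.09 for high-fat and -0.33 ± 0.06 for low-fat arrays. That of the 26 LXR targets was 0.05 ± 0.02 for high-fat and -0.05 ± 0.05 for low-fat arrays. The LXR list includes Nr1h3 and Rxra, so Nr1h3 is set beside a mean that holds its own values. Ppara stood at -0.40 on HF3 and -0.63 on LF3, its lowest value of each diet, while the PPAR-alpha target mean stood at 0.19 on HF3 and -0.27 on LF3. Pparg had -0.08, 0.40 and 0.94 for HF1 to HF3, and -0.91, -0.33 and -0.01 for LF1 to LF3.

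The DNA element for these receptors is a pair of hexamers, spaced by 1 base for PPAR with RXR and by 4 bases for LXR with RXR. The 250 bases before each start site in RefSeq's table of mouse promoters (GRCm38.p6) were searched on both strands for AGGNCANAGGNCA (spacer of 1) and AGGNCANNNNAGGNCA (spacer of 4), where N is any base, and for the single hexamer AGGTCA, which can lie inside either repeat. The repeat with a spacer of 1 was in 0.338% of all 32851 windows, and that with a spacer of 4 in 0.213%. Of the target genes with a window, the first was found in 1 of 35 for PPAR-alpha (Fabp1), 0 of 24 for PPAR-gamma and 1 of 26 for LXR (Apoc2), and the second in 0 of each. The receptors themselves had 14 windows for 8 genes, with 0 matches to either repeat, and the single hexamer was in 4 of the 14, where 14.0% of all windows hold it. A match is a description of the letters only.
The windows of the 2 target genes with a match are shown because one of them, Apoc2, also rose, with the match in capitals and the rest in lower case, written along the strand of the gene.
Fabp1 (chr6:71199629-71199878, plus strand): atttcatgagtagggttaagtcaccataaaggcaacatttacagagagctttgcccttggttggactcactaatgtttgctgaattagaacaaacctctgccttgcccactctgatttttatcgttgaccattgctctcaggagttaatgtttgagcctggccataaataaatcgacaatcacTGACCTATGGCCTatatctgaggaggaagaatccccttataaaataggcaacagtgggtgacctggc
Apoc2 (chr7:19677942-19678191, minus strand): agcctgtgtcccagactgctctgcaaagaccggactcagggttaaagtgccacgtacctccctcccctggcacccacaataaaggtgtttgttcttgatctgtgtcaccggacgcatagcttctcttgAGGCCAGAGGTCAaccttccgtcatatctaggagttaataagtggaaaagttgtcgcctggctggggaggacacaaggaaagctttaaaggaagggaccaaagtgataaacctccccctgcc
The match of Fabp1 lies 67 to 55 bases before the start site and reads on the opposite strand, and that of Apoc2 lies 122 to 110 bases before it. Fabp1, which carries fatty acids inside hepatocytes, read 28485, 28265 and 21876 on the high-fat arrays, against 20817, 26016 and 20285 on the low-fat arrays, with overlap, and did not pass (log2 fold change 0.23, adjusted p = 0.786; a second probe set stood at 0.058). Apoc2 was 1.99-fold higher on the high-fat diet (adjusted p = 0.0207).

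Other nuclear receptors that pair with RXR also gave no call. Of 13 with a probe set, 9 were tested, 0 were called, and 4 had a fold change above 0 and 5 below. Since 0.976% of all tested genes were called, a count of 0 of 9 is near that background and is no result about a list. The smallest p-values were those of Nr2f2 (COUP-TFII), at a log2 value of -0.54 (adjusted p = 0.553), Nr1i3 (CAR, a sensor of foreign compounds), at -0.23 (adjusted p = 0.721), and Thra, a thyroid hormone receptor, at 0.21 (adjusted p = 0.781). Nr1h4, the bile acid receptor, was at -0.0021. Liver nuclear receptors outside that group had 9 tested genes, and 0 passed, while all 9 had a fold change below 0, where 48.7% of all tested genes did. Their median log2 fold change was -0.29. The 3 with the smallest p were Nr1d2, a clock repressor, at 231, 205 and 464 on the high-fat arrays against 581, 464 and 947 on the low-fat arrays (adjusted p = 0.273), Nr0b2 (SHP), at a log2 value of -0.30 (adjusted p = 0.609), and Nr2c1, at -0.74 (adjusted p = 0.678).

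Among the coregulators, 1 gene passed. Of 15 tested coactivators 0 rose and 1 fell: Lpin1, which acts as a phosphatidate phosphatase and as a partner of PPAR-alpha in the nucleus, read 507, 759 and 455 on the high-fat arrays, against 1139, 1621 and 1359 on the low-fat arrays. It was 2.43-fold lower on the high-fat diet (adjusted p = 0.0300), and this call held only without HF2 among the 6 arrays left out in turn. Ncoa2, a coactivator of many nuclear receptors, read 98.5, 47.2 and 78.3 on the high-fat arrays, against 192, 182 and 191 on the low-fat arrays. It had no overlap and missed the threshold (adjusted p = 0.0668). Kat2a, a histone acetyltransferase, had a log2 value of -0.78 (adjusted p = 0.389). Of 10 corepressors 0 passed, with Nrip1 at 0.60 (adjusted p = 0.497), Nr0b2 as above and Lcor at -0.49 (adjusted p = 0.664). Among all tested genes 0.976% were called in either direction and 0.473% were called lower on the high-fat diet, so 0 of 10 is near the background. The coactivator median was 0.01 and that of the corepressors -0.08.

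Genes that make, carry or clear receptor ligands had 23 tested members, of which 1 rose, Mgll, and 1 fell, Rdh11. Of all tested genes 0.503% rose and 0.473% fell. Rdh11, a retinal reductase, read 1343, 1719 and 1238 on the high-fat arrays, against 2855, 2599 and 2954 on the low-fat arrays, 1.97-fold lower on the high-fat diet (adjusted p = 0.0157). It was no longer called without HF1, LF1, LF2 or LF3. A second Rdh11 probe set gave a log2 value of -0.96 and was not called (adjusted p = 0.351). Cyp7b1, which clears oxysterols, the ligands of LXR, read 3785, 1938 and 2642 on the high-fat arrays against 3940, 4762 and 5690 on the low-fat arrays; HF1 lay just under the lowest of these (adjusted p = 0.235). A second Cyp7b1 probe set had a log2 value of -0.88 (adjusted p = 0.0784).

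**Figure D4:**
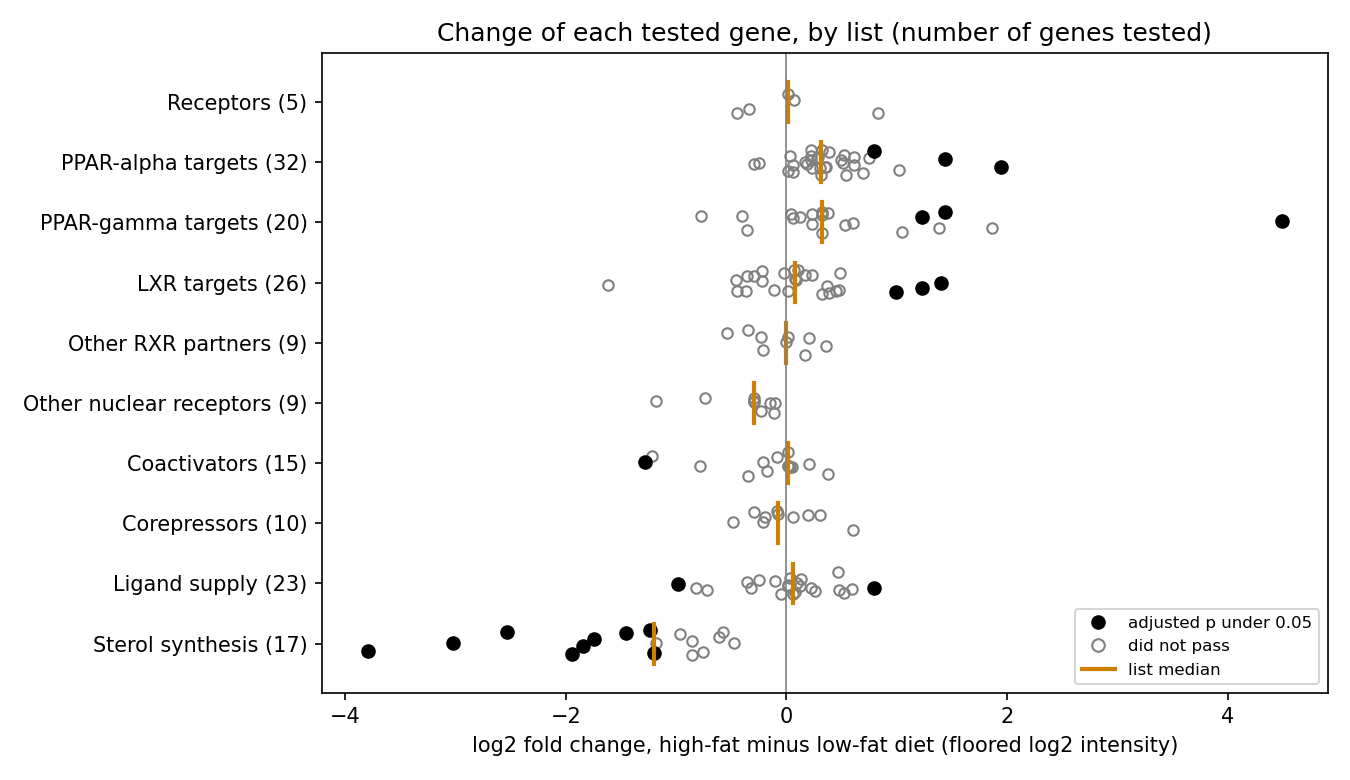
Log2 fold change, high-fat minus low-fat diet, of each tested gene in 10 lists, with the number of genes tested in brackets. Filled circles passed an adjusted p of 0.05, open circles did not, and the orange bar is the list median. The receptors hold no filled circle, and the medians run from 0.33 for PPAR-gamma targets to -1.21 for sterol synthesis.

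The profiles most like those of the receptors were sought among 149 tested genes of these lists, by the root mean square difference of log2 values centred on the 6 arrays. For Ppara, whose own root mean square was 0.39, the nearest were Prmt1, a coactivating methyltransferase, at 0.18, Apoc1 at 0.21 and Nr2f6 at 0.22, against a median of 0.50. For Nr1h3 they were Rdh7 at 0.066, the cholesterol carrier Npc2 at 0.078 and the retinol carrier Rbp4 at 0.094, against a median of 0.32. For Rxra they were Abcg1, Nr0b2 and Nr1i2, at 0.23, 0.23 and 0.24. For Rxrb they were Rora, Lcor and Sin3b, at 0.12, 0.17 and 0.18. All points share the 6 arrays and their scaling, and these distances describe likeness over 6 arrays only.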

How the data were processed

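The deposited table holds 1 linear intensity per probe set and array. Which software, background correction and scaling the authors used is not given in the sources used here. With 2% of probe sets trimmed at each end, the mean intensity was 500.4 on each deposited array, so the arrays had been scaled before deposit. Diet and array number came from the titles. Symbols came from the platform's gene table (10855 probe sets with 1 symbol, 396 with several, 1237 not listed), of which 10839 were matched by gene ID to RefSeq (GRCm38.p6).

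Values below 68.9 were raised to it before taking log2. Probe sets above it on at least 3 of 6 arrays entered the fit (limma 3.58.1, R 4.3.3, lmFit, eBayes with an intensity trend, two-sided, high-fat minus low-fat, Benjamini-Hochberg). The 66 control probe sets were left out. Receptor p-values are adjusted over 8950 probe sets. For lists, each gene has its brightest probe set and p-values are adjusted over 6557 genes from the same fit. Fold changes are on the floored log2 scale and understate dim genes, and 3 arrays a diet limit the precision. The method was tested on simulated data.

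The members, the lists and the tests were chosen with earlier results of these data known. Named genes follow a rule: every receptor, up to 6 called genes per list by smallest p (or, where fewer than 3 passed, the 3 with the smallest p), and the 3 nearest profiles. Other genes are mostly marked as picked later. Nr1h4, Pck1, Fabp1 and single marker genes are named outside this rule without that mark. Figures were drawn with matplotlib 3.10.9.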

Additional observations from a re-analysis of the deposited data

How the results depend on the processing

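The receptor count was 0 under all 19 alternatives too, which says little of stability with 6 probe sets and so few calls overall. The alternatives covered normalization (quantile or median scaling), the floor (10th percentile, 50th percentile or an added constant of 32 in its place), the filter (none, or all 6 arrays above the floor), no variance trend, robust estimation, array weights, the replicate block, no suffixed probe sets, each array left out and an adjusted p of 0.10. Of 104 receptor values under the alternatives other than that threshold, 0 were called and 5 changed sign (Pparg was tested under 15 of 18 of them, not with the 50th percentile floor, with all 6 arrays above the floor or without suffixed probe sets; the second Rxra probe set under 17): Ppara at -0.052 with array weights, -0.17 without HF1, -0.011 without HF2 and -0.30 without LF3 (range with an array left out -0.30 to 0.21), and Nr1h3 at -0.0041 without HF2 (range -0.0041 to 0.20). The cause was not tested.

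The 74 called probe sets were 31 with no filter (probe sets at the floor on all arrays left out), 20 with no variance trend, 120 at an adjusted p of 0.10 and 26 to 75 with an array left out. With no filter or no variance trend the PPAR-alpha targets called were 0 and 0, the PPAR-gamma targets 1 and 1 and the LXR targets 1 and 1. At an adjusted p of 0.10 there were 5 PPAR-alpha targets, all higher, and 6 PPAR-gamma targets, 5 higher and 1 lower. PPAR-gamma targets numbered 5 with array weights and 5 without suffixed probe sets, in each case 4 higher and 1 lower. With the 50th percentile floor, all 6 arrays above the floor or robust estimation, 1 was lower as well. With an array left out the counts ran from 0 to 3, 1 to 2 and 1 to 2 for PPAR-alpha, PPAR-gamma and LXR targets.

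The array numbers are shared by the diets, but same-numbered arrays deviated together with correlations of 0.071, 0.11 and 0.31. They share a number and are not shown to be pairs, and not every array correlated best with its own number. The arrays numbered 3 did deviate together. HF3 had 0.31 with LF3, against -0.12 with LF1 and -0.21 with LF2. LF3 had -0.17 with HF1 and -0.16 with HF2. What the arrays numbered 3 have in common was not tested. With the replicate block 103 probe sets were called, with 5 PPAR-gamma targets (4 higher, 1 lower) and 0 receptors.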
